A study of Rattus norvegicus with 6 samples.

Results

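The insulin-like growth factor (IGF) axis was followed in cultured rat heart muscle cells through 10 genes: the ligands Igf1 and Igf2, the receptors Igf1r and Igf2r, and the binding proteins Igfbp2 to Igfbp7. Members were taken as the array probes whose transcript accession maps to these symbols in the RefSeq rat gene table, and where a gene had several probes the one with the highest average level stood for it. All 10 genes had a probe, among 16575 genes with values on the array. They were matched by 16 probes, of which 13 were tested because the scanner software marked them as well above background on every control array, every C3a array or both. These 13 probes covered 9 genes. Of these genes 8 were well above background on all 6 arrays, while Igfbp2 passed only through the C3a group, having missed the mark on 1 control array, and Igfbp5 missed it on all 6.

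IGF1 and IGF2 are small secreted peptides related to insulin that drive growth of the fetal and neonatal heart through the receptor tyrosine kinase IGF1R. IGF2R, which also carries mannose 6-phosphate-tagged enzymes to lysosomes, binds IGF2 and removes it. The secreted IGF-binding proteins hold the ligands in the extracellular space, and each can lower or prolong their access to the receptor.

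The cells were neonatal rat ventricular myocytes, a primary culture prepared from 1- to 2-day-old Sprague-Dawley rats, with 8 to 10 hearts pooled in a preparation and other cells reduced by preplating. They were kept in medium alone (control, n = 3) or with 0.5 µg/ml recombinant C3a, the anaphylatoxin cleaved from complement component C3, for 12 h (C3a, n = 3). No genetic change was made in either group. The comparison asks which transcripts differ when C3a is added to the myocytes. The labels do not say whether the 3 samples of a group were separate cultures, so p-values measure only the spread between these samples, which may be technical.

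Each sample was hybridised to a 1-colour array with 45598 probes, and all 6 arrays lay on 1 slide scanned in 1 session, with each group at its own end, so that position on the slide and treatment cannot be told apart. Levels are log2 intensities relative to the 75th percentile of the same array, and 0 is that percentile. Between 53.7% and 57.3% of probes were well above background on 5 arrays, and 38.6% were on control replicate 1, the array with the highest local background. Of the 23438 tested probes, 23425 were well above background on all C3a arrays and 17519 on all control arrays. All 10 cardiomyocyte markers (Myh6, Tnnt2 and others) passed this mark on all 6 arrays, at a mean level of 7.81 to 8.03 in control and 7.98 to 8.13 in C3a samples. RNA of other cells was also measured: all 9 fibroblast, all 6 smooth muscle and pericyte, 4 of 6 endothelial and 3 of 7 macrophage markers passed the filter.

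None of the 9 tested IGF genes passed limma's moderated test with Benjamini-Hochberg adjustment over 23438 probes, and the percentage of all 10390 tested genes that passed was 0%. At an unadjusted p under 0.05, Igf2 was higher with C3a among the 8 members well above background on all 6 arrays, and no member was lower. Igfbp2 was also higher, but it entered the test only through the C3a group, in which it is high, so its p and its place in these counts describe it and support nothing. Over all tested genes, 2.92% were higher and 2.46% lower at that p. With the replicate number as a block, or with the methods' t-test, Igf2 alone was higher, where 5.78% and 3.33% of all tested genes were. For Igf2 and Igfbp2 every C3a sample lay above every control sample. That held for 8.09% of all tested genes, and the reverse order for 4.89%. The differences of the 9 genes were all above 0, as were 60.5% of those of all tested genes, and their median was 0.13 on the log2 scale beside 0.036 over all tested genes. With the arrays left unscaled only 2 of the 9 differences (Igf2 and Igfbp2) were above 0, and with scaling to spike-in RNA only 1 (Igf2). The median of all probes moved to -0.28 and -0.40 under those scalings, and 7 of the 9 IGF genes lay above that median under each of them, as they did with the 75th percentile. Both scalings lower every log2 difference by the same amount, which takes that of Igf2 from 0.61 to 0.29 and 0.16.

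**Figure D1:**
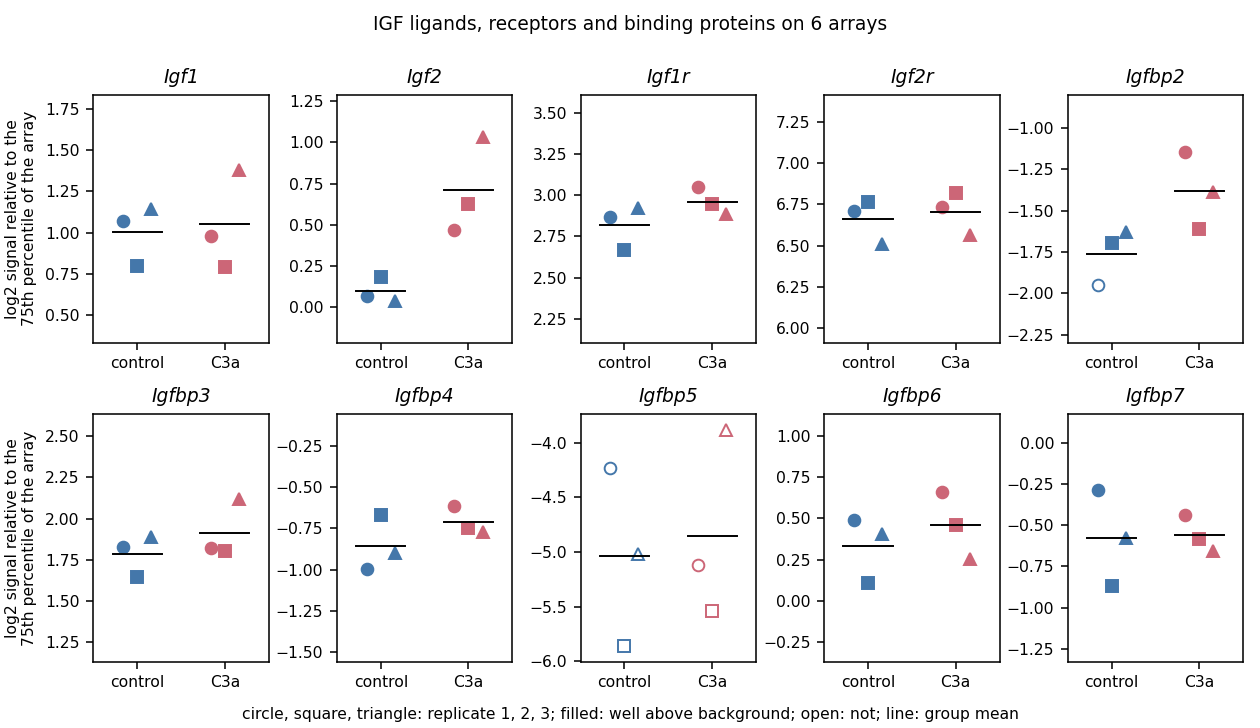
Level of each IGF gene on each array (log2 intensity relative to the array's 75th percentile, vertical axis, with its own range in each panel), with circles, squares and triangles for replicates 1, 2 and 3 of control and C3a, lines for group means and open symbols where the probe was not well above background. The groups are separate for Igf2 (0.041 to 0.19 against 0.47 to 1.03) and, by a gap of 0.020, for Igfbp2, and they overlap for the other genes.

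Igf2, the fetal growth factor that is expressed from the paternal allele in most tissues, showed the widest separation of the IGF genes. Its level was 0.072, 0.19 and 0.041 in control replicates 1, 2 and 3, and 0.47, 0.63 and 1.03 in C3a replicates 1, 2 and 3. The controls lay close together at the 75th percentile of their arrays, all C3a samples lay above them, and C3a replicate 3 was the highest. The gap between the highest control and the lowest C3a sample was 0.28. The group means were 0.10 ± 0.077 and 0.71 ± 0.29 (SD, n = 3 each), a difference of 0.61 (SE 0.16, 95% interval 0.24 to 0.98), or 1.53-fold. By limma's moderated test the unadjusted p was 0.00550, rank 135 of the 23438 probes, and the adjusted p was 0.745. An exact two-sided permutation test over the 6 samples gave p = 0.1, the smallest value that 3 samples against 3 allow. The difference was 0.45 without C3a replicate 3, 0.60 without control replicate 1, and above 0 under every alternative setting tried, from 0.16 with spike-in scaling to 0.73.

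The 2 spots of this Igf2 probe differed within an array by an SD of at most 0.120, and its intensity was 277 to 444. A second probe for the same Igf2 transcript was well above background on 2 arrays of each group, so it was not tested, and its level was -4.04, -3.94 and -3.57 in control and -3.36, -3.71 and -3.75 in C3a samples. Those groups overlapped.

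The sequences before the Igf2 and Igfbp2 transcription starts are given because these are the 2 members whose groups did not overlap. They were taken from RefSeq (GRCr8) as the 250 bases upstream of each annotated start and were searched on both strands for the GC box with letters GGGCGG, the CCAAT box and the TATA box with letters TATAAA. Matches are in capitals, and none overlapped another. RefSeq annotates 2 Igf2 starts on the minus strand, at chr1:207253981-207254230 and chr1:207250476-207250725, and the Igfbp2 window lies on the plus strand at chr9:81864561-81864810.
Igf2, upstream start: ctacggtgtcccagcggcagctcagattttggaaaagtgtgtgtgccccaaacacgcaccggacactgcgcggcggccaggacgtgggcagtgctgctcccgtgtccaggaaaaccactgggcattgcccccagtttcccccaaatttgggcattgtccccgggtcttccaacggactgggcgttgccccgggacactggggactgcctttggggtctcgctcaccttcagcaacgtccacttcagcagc
Igf2, downstream start: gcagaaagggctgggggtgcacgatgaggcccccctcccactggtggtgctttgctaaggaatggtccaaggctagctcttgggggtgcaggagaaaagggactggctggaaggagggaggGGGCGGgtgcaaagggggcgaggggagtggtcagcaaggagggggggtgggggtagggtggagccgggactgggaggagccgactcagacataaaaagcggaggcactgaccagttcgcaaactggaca
Igfbp2: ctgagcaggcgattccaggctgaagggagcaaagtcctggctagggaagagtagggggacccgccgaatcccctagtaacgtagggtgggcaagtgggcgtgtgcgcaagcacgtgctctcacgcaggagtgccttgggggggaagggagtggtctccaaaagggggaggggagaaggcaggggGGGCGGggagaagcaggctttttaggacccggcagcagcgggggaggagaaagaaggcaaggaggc
The downstream Igf2 window and the Igfbp2 window each held 1 GC box, 129 and 66 bases before the start, and the upstream Igf2 window held none of the 3 motifs. GC boxes occurred in 30.5% of all 33469 rat windows of this length, CCAAT boxes in 34.0% and TATA boxes in 12.9%. The GC content was 62.4% and 63.6% in the Igf2 windows and 64% in the Igfbp2 window, above the median of 51.2% over all windows. These matches describe the letters only, and no binding was measured.

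H19, the maternally expressed noncoding RNA that neighbours Igf2 and shares its imprinting control region, is not a member but was in the list of IGF bioavailability and imprinting genes. It was measured by 1 probe with 1 spot. Its level was -0.24, -0.047 and -0.17 in control replicates 1, 2 and 3, and 0.57, 0.74 and 1.54 in C3a replicates 1, 2 and 3. As for Igf2, all C3a samples lay above the controls and C3a replicate 3 was the highest. The means were -0.15 ± 0.098 and 0.95 ± 0.52 (SD, n = 3 each), a difference of 1.1 (SE 0.24, 95% interval 0.53 to 1.67), or 2.14-fold. The unadjusted p by limma's moderated test was 0.00264, rank 67 of the probes, and the adjusted p was 0.745. Leaving out 1 sample at a time moved the H19 difference between 0.81 and 1.29, with the lowest value without C3a replicate 3, and across the 19 settings it stayed above 0, from 0.65 to 1.29.

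Over the 6 samples the Igf2 and H19 levels had a Pearson r of 0.996. Among 8555 genes well above background on all arrays, the 3 with the highest correlation to Igf2 were Filip1 (r = 0.998, difference between groups 0.26), H19, and Ep400 (r = 0.992, difference 0.15), and 57 genes in all had r above 0.9. These correlations describe 6 arrays that share a slide and a scaling, and they include the difference between the groups. Igf2 was also taken as a difference from the mean of the 7 other IGF genes that were well above background on all arrays. This quantity does not change when an array is scaled by a constant. It was -1.60, -1.30 and -1.59 in control and -1.27, -1.01 and -0.65 in C3a samples. The groups did not overlap, but the highest control (-1.30) and the lowest C3a sample (-1.27) lay close together. The difference between the group means was 0.52. For H19 the same quantity differed by 1.01.

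**Figure D2:**
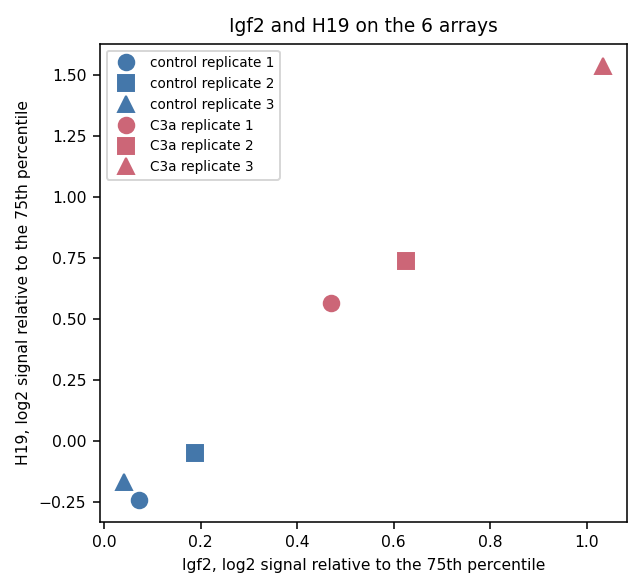
Igf2 level (horizontal axis) against H19 level (vertical axis), both as log2 intensity relative to the array's 75th percentile, with 1 point for each of the 3 control and 3 C3a samples. The controls gather at Igf2 levels of 0.041 to 0.19 and the C3a samples lie above them on both axes, with C3a replicate 3 farthest out at 1.03 and 1.54.

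Igf1, the ligand that carries most growth hormone-dependent growth after birth, did not separate the groups. Its level was 1.07, 0.80 and 1.14 in control and 0.98, 0.79 and 1.38 in C3a samples. The highest and the lowest sample were both treated with C3a. The means were 1.00 ± 0.18 and 1.05 ± 0.30 (SD, n = 3 each), and the difference of 0.048 (SE 0.17) had a 95% interval from -0.36 to 0.46, with an adjusted p of 0.941 by limma's moderated test.

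The array held 4 further Igf1 probes, and all of them overlapped between the groups. The probe for transcript NM_001082479, printed on 10 spots, was at 0.29, 0.06 and 0.35 in control and 0.50, 0.10 and 0.26 in C3a samples, a difference of 0.053 (adjusted p = 0.917 by limma). Its spots varied within an array by an SD of 0.0271 to 0.135. Both probes for XM_006241194 gave differences of 0.14 and 0.22 (adjusted p = 0.778 and 0.745 by limma). The one at 0.22 was well above background on 2 of the 3 control arrays. It was therefore tested only through the C3a group, in which it is high. The last Igf1 probe was not tested because it was well above background on 1 array of each group. Across the arrays the genes most like Igf1 were Cd28 (r = 0.996), Nhlh1 (r = 0.987) and P4ha1 (r = 0.979), whose differences between groups were 0.020, 0.00027 and 0.023. In all 50 of the 8555 genes had r above 0.9 with Igf1.

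Igf1r, the tyrosine kinase receptor through which both ligands signal, was read by 2 probes that differed in sign. The probe for XM_008759500, the brighter of the pair and therefore the one that represents the gene, was at 2.87, 2.67 and 2.92 in control and 3.05, 2.94 and 2.88 in C3a samples. Its groups overlapped, through control replicate 3 and C3a replicate 3. The means were 2.82 ± 0.13 and 2.96 ± 0.084 (SD, n = 3 each), a difference of 0.14 (SE 0.11, 95% interval -0.11 to 0.40, adjusted p = 0.749 by limma).

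The other Igf1r probe, for NM_052807, was at -0.43, -0.30 and -0.40 in control and -0.62, -0.59 and -0.65 in C3a samples. Here all C3a samples lay below all controls, by a gap of 0.16, as was so for 4.49% of all tested probes. The difference was -0.24 (SE 0.090, 95% interval -0.45 to -0.028), with an unadjusted p of 0.0317 and an adjusted p of 0.745 by limma, and 2.5% of all probes were lower at an unadjusted p under 0.05. The level of the first probe minus that of the second within an array was 3.29, 2.96 and 3.33 in control and 3.66, 3.53 and 3.53 in C3a samples. These values did not overlap either, and their means differed by 0.38. Averaging both probes gave a difference of -0.050 for Igf1r, so that the sign of the gene's value depends on the probe. The other 12 tested probes of the 9 genes all had differences above 0, as did 62.2% of all tested probes. Several of these 12 read the same gene, Igf1. The Igfbp2 probe and the Igf1 probe with a difference of 0.22 were tested only through the C3a group, in which they are high.

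Igf2r, the mannose 6-phosphate receptor that takes up IGF2, was at 6.71, 6.77 and 6.51 in control and 6.73, 6.82 and 6.57 in C3a samples, with intensities from 19615 to 40011. In each group replicate 3 was the lowest and replicate 2 the highest. The 2 groups covered almost the same range. The means were 6.66 ± 0.13 and 6.70 ± 0.13 (SD, n = 3 each), a difference of 0.042 (SE 0.12, 95% interval -0.23 to 0.32, adjusted p = 0.922 by limma), and samples of the same replicate number differed by 0.022, 0.049 and 0.055. The probe was printed on 10 spots, which varied within an array by an SD of 0.0601 to 0.0820.

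Igfbp2, a binding protein abundant in fetal tissues that prefers IGF2, was dim. Its level was -1.95, -1.70 and -1.63 in control and -1.14, -1.61 and -1.39 in C3a samples, at intensities of 70.5 to 113. The first of these, in control replicate 1, was not well above background, and the highest control and the lowest C3a sample were separated by only 0.020. The means were -1.76 ± 0.17 and -1.38 ± 0.23 (SD, n = 3 each), a difference of 0.38 (SE 0.15, 95% interval 0.025 to 0.73), or 1.30-fold. By limma's moderated test the unadjusted p was 0.0392, rank 1053 of the probes, and the adjusted p was 0.745. Without control replicate 1 the difference was 0.28 (unadjusted p = 0.119 by limma), and the unadjusted p was also above 0.05 without control replicate 2 (0.0579), C3a replicate 1 (0.129) or C3a replicate 3 (0.0812). Samples of the same replicate number differed by 0.81, 0.090 and 0.24.

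Igfbp3, the main carrier of IGFs in blood, was at 1.83, 1.65 and 1.89 in control and 1.82, 1.80 and 2.12 in C3a samples, a difference of 0.13 (SE 0.13, 95% interval -0.17 to 0.42, adjusted p = 0.778 by limma). Igfbp4, a binding protein known mainly as an inhibitor of IGF action, was at -0.999, -0.67 and -0.90 in control and -0.62, -0.75 and -0.77 in C3a samples, a difference of 0.14 (SE 0.12, 95% interval -0.13 to 0.42, adjusted p = 0.757 by limma). The groups overlapped for both.

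Igfbp6, which binds IGF2 in preference to IGF1, was at 0.49, 0.11 and 0.41 in control and 0.66, 0.46 and 0.25 in C3a samples, a difference of 0.12 (SE 0.15, 95% interval -0.23 to 0.48, adjusted p = 0.813 by limma). Igfbp7, a related secreted protein with low affinity for IGFs, was at -0.29, -0.87 and -0.58 in control and -0.44, -0.58 and -0.66 in C3a samples, a difference of 0.019 (SE 0.16, 95% interval -0.36 to 0.39, adjusted p = 0.976 by limma). For Igfbp7 the C3a samples lay inside the range of the controls. Igfbp5, a binding protein that attaches to extracellular matrix, missed detection on all 6 arrays, at intensities of 6.18 to 14.5, so no fold is given for it.

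**Figure D3:**
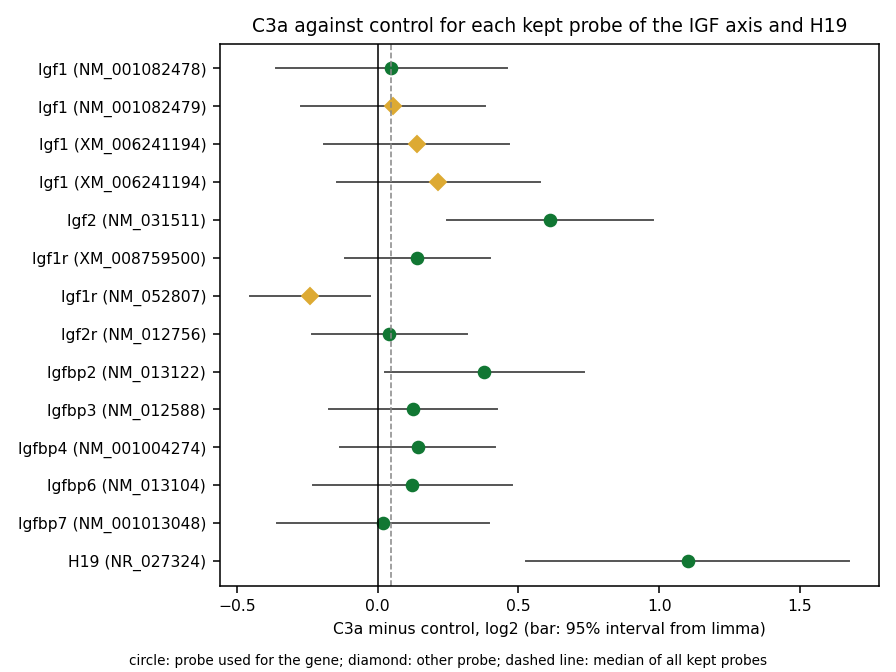
C3a minus control difference on the log2 scale (horizontal axis) of each tested probe of the IGF genes and of H19, with its 95% interval from limma as a line, circles for the probe that stands for the gene, diamonds for its other probes and a dashed line at the median of all tested probes. The intervals of Igf2 (0.24 to 0.98) and Igfbp2 (0.025 to 0.73) lie above 0, that of the second Igf1r probe (-0.45 to -0.028) lies below it, and those of the other IGF probes include it.

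Spread over the 6 samples was widest for Igf2 (SD 0.385), followed by Igf1 (SD 0.224), among the 8 IGF genes well above background on all arrays. Their 28 pairwise correlations had a median r of 0.0885, and 16 were above 0. The highest was between Igf1 and Igfbp3 (r = 0.916) and the lowest between Igf1 and Igf2r (r = -0.846), over 6 arrays that share a slide.

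Igf2 kept its sign in all 18 settings, and relative to the median of all probes it lay between 0.40 and 0.71. Igfbp2 was above 0 in 16 of the 17 settings in which it had a value. For the 7 other tested genes the sign depended on the scaling, with values down to -0.43 for Igfbp7 under spike-in scaling.

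Other genes that control access to IGFs, or that are imprinted with them, were listed separately (18 genes, 13 on the array, 8 tested). None passed limma's adjusted test, and 1, H19, was higher at an unadjusted p under 0.05, beside 2.92% of all tested genes. The C3a samples lay above all controls for 3 of the 8, H19, Furin (0.25), a protease that matures many precursors, and Ide (0.066), the insulin-degrading enzyme, and below them for none, beside 8.09% and 4.89% of all tested genes. The median difference of the 8 genes was 0.092, beside 0.036 over all tested genes.

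Insulin and IGF receptor signalling was covered by 32 genes, of which 31 were on the array and 28 were tested. None passed limma's adjusted test, 1 was higher and 2 were lower at an unadjusted p under 0.05, where 5.38% of all tested genes were called in either direction. These were Pik3ca (0.23) and Pik3cb (-0.41), catalytic subunits of phosphoinositide 3-kinase, and Mtor (-0.48), the growth-controlling kinase. The lowest difference of the list was -0.52 for Akt1, well above background on all 6 arrays, with overlapping groups. Its unadjusted p by limma was 0.0895, and 0.00168 with the replicate block (adjusted 0.220). With the block the unadjusted p by limma was 0.0163 for Mtor, 0.0211 for Pik3cb and, in the other direction, 0.0496 for Irs1. Akt1 was named after its values were seen, and the share of all tested genes lower with the block was not counted. Without overlap between the groups, 6 genes lay above the controls and 4 below, beside 8.09% and 4.89% of all tested genes. Those above were Irs1 (0.50), the docking protein of the insulin and IGF1 receptors, Pik3ca, Grb14 (0.15), Pdpk1 (0.18), Tsc1 (0.077) and Eif4ebp1 (0.21), and those below were Pik3cb, Mtor, Shc1 (-0.13) and Rheb (-0.13). The median of the 28 differences was 0.066, with 20 above 0 and 8 below. Irs1, Pik3cb and Mtor were each well above background on all C3a arrays and on 2 of the 3 control arrays, so Irs1 was tested only through the group in which it is high.

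**Figure D4:**
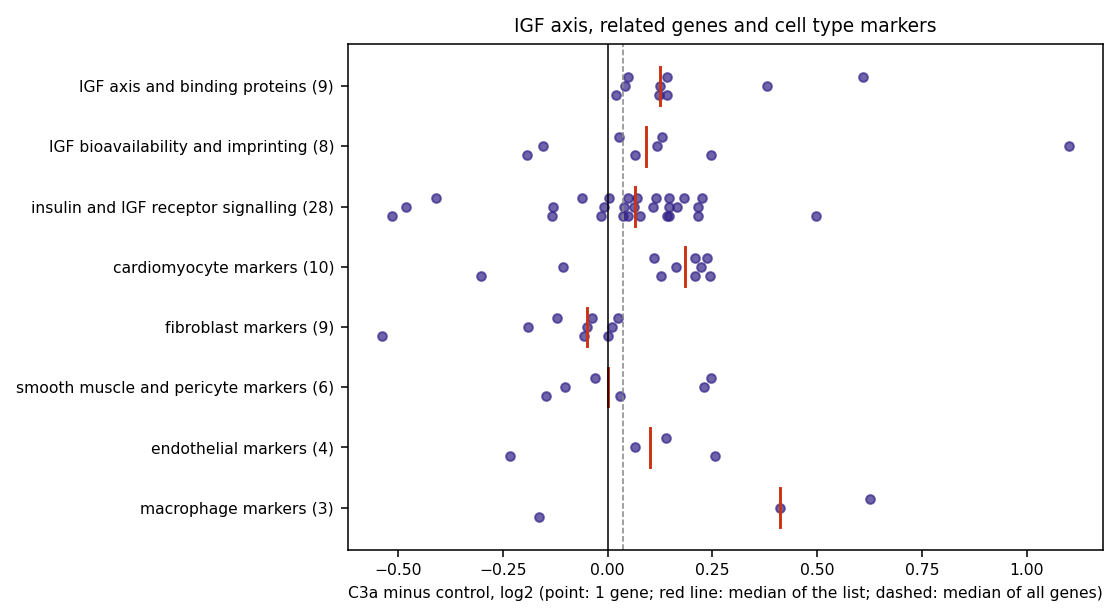
C3a minus control differences on the log2 scale (horizontal axis) of the tested genes of each list, with 1 point a gene, a red line at the list's median and a dashed line at the median of all tested genes. Medians were 0.13 for the 9 IGF genes, 0.092 for bioavailability and imprinting and 0.066 for receptor signalling, beside 0.036 over all tested genes.

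Markers of other cells were set beside these values, since in a bulk sample fewer cells of a type and less RNA per cell cannot be told apart. The mean level of the 9 fibroblast markers was 0.021 to 0.29 in control and 0.020 to 0.060 in C3a samples, with 3 differences above 0 and 6 below. They were 0.024 for Col1a1, 0.001 for Pdgfra and -0.056 for Dcn, and the lowest were -0.54 for Lum (unadjusted p = 0.0367 by limma), -0.19 for Thy1 and -0.12 for Postn. Smooth muscle and pericyte markers were at 0.25 to 0.37 and 0.30 to 0.40, with 3 differences above 0 and 3 below. They were 0.25 for Acta2, 0.23 for Rgs5, 0.029 for Pdgfrb, -0.030 for Myh11, -0.10 for Tagln and -0.15 for Cnn1. Tested endothelial markers were at 0.77 to 1.02 and 0.91 to 1.12 (Pecam1 0.064, Cdh5 0.26, Kdr 0.14, Tek -0.23). These ranges overlapped between the groups, although for Tek all C3a samples lay below all controls. Of the untested endothelial markers, Tie1 differed by -0.73, also with all C3a samples below all controls, and Emcn by -0.20. Each of them was dim and was well above background on only 4 of the 6 arrays. The 3 tested macrophage markers were at -2.47 to -2.27 in control and -2.15 to -1.89 in C3a samples, without overlap, with differences of 0.63 for Itgam, 0.41 for Csf1r and -0.16 for Cd68. Itgam, Csf1r and the pericyte marker Rgs5 were well above background on 2 control arrays. These genes were tested only through the C3a group, in which they are high. Of the 4 untested macrophage markers, Adgre1 differed by 0.30, Cd14 by -0.37 and Ptprc by -0.83. Adgre1 was well above background on 3 of the 6 arrays, Cd14 on 4 and Ptprc on 1. Mrc1 was detected on none of the 6 arrays. Of the 10 cardiomyocyte markers 8 were above 0, among them Myh6 (0.22), Tnnt2 (0.21) and Actc1 (0.16), and 2 below, Actn2 (-0.30) and Ryr2 (-0.11). The part of any cell type in the Igf2 and Igfbp2 values was not tested.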

How the data were processed

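RNA of 3 control and 3 C3a-treated samples was measured on 1-colour Agilent rat arrays. The authors deposited scanner output with the background-subtracted spot intensity (gProcessedSignal) from Feature Extraction 11.5.1.1, per the submitters' processing notes, and a table of log2 values relative to the 75th percentile, in which the per-array median absolute difference from values recomputed from the scanner output was 0.00211 to 0.00579. Control spots and outlier spots were removed, spots of a probe averaged (45598 probes), and log2 intensity was taken minus each array's 75th percentile. Tested were the 23438 probes (10390 genes) that the software marked well above background on every control array, every C3a array or both, with limma 3.58.1 in R 4.3.3, two-sided, with Benjamini-Hochberg adjustment over all of them, on the 6 arrays without a covariate. No spot was saturated, and precision is limited by having 3 arrays a group. Figures were drawn with matplotlib 3.10.9.

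Symbols came from the RefSeq table of GRCr8 by transcript accession, which named 21109 of the 45598 probes (46.3%). The array grid uses another assembly, so no probe coordinates are given. Named were all members with their probes, genes of the 2 related lists without overlap between groups or with unadjusted p under 0.05, the first 3 markers of each cell type, and the 3 genes most correlated with each of the 2 most variable members. Other markers and Akt1 were named outside this rule, after their values were seen. The members and lists were chosen with earlier results of these data known.

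Same-numbered control and C3a samples deviated together from their group means (r = 0.281, 0.320 and 0.312, and -0.255 to -0.0930 for other pairs). The deviations within a group cancel out, so positive values for same-numbered pairs force negative ones among the other pairs. The labels give only the number, and the pairing rests on the correlation of same-numbered samples. The replicate block was run as an alternative, as were quantile, spike-in and no scaling, the percentile over detected probes, normexp (offset 50) on the median spot signal because no mean signal was given, other filters, a variance trend, the deposited log2 table, the methods' t-test, the mean of all probes of a gene, and leaving out each sample.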

Additional observations from a re-analysis of the deposited data

How the results depend on the processing

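No IGF gene passed limma's adjusted test under any setting. Of all 23438 tested probes, 4 passed it without scaling and 16 with spike-in scaling. With the reported processing 2 of 9 IGF genes were higher at an unadjusted p under 0.05, beside 2.92% of all tested genes. Of these 2, Igfbp2 was tested only through the C3a group, in which it is high. The unadjusted count of IGF genes was 0 without scaling and with spike-in scaling, and 1 (Igf2) with the percentile over detected probes, the filter on all 6 arrays (where Igfbp2 was not tested), no filter, the replicate block and the methods' t-test, and 1 to 2 when 1 sample was left out. Over all tested genes, 5.78% were higher with the block and 3.33% with the t-test. That share was not counted for the other alternatives. The median difference of the IGF genes, 0.13 as reported, was -0.20 without scaling, -0.32 with spike-in scaling, and 0.065 to 0.17 when 1 sample was left out. With the replicate block Igf2 had an unadjusted p of 0.00690 (adjusted 0.229) and Igfbp2 0.0573, and the block changed no other call.

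Without scaling the differences turned to -0.28 for Igf1, -0.18 for Igf1r, -0.28 for Igf2r, -0.20 for Igfbp3, -0.18 for Igfbp4, -0.20 for Igfbp6 and -0.31 for Igfbp7. With spike-in scaling they were -0.40 for Igf1, -0.31 for Igf1r, -0.41 for Igf2r, -0.071 for Igfbp2, -0.32 for Igfbp3, -0.31 for Igfbp4, -0.33 for Igfbp6 and -0.43 for Igfbp7. In these settings the median of all probes was -0.28 and -0.40. Quantile normalization gave -0.10 for Igf2r, the percentile over detected probes -0.0090 for Igfbp7, and the mean of all probes -0.050 for Igf1r. Leaving out 1 sample moved Igf1 from -0.12 to 0.18 (below 0 without control replicate 2 or C3a replicate 3), Igf2r from -0.034 to 0.11 (below 0 without control replicate 3 or C3a replicate 2) and Igfbp7 from -0.13 to 0.16 (below 0 without control replicate 2 or C3a replicate 1). The same step moved Igf1r from 0.065 to 0.19, Igfbp3 from 0.023 to 0.18, Igfbp4 from 0.071 to 0.23 and Igfbp6 from 0.0093 to 0.22, all above 0. Without scaling, and with spike-in scaling, the differences of all genes were lowered by 1 common amount, and the median of all probes with them. What caused that shift and the other changes was not tested. Igfbp5 was near background throughout, and Igfbp2 at 70.5 to 113 intensity units was close enough to it for control replicate 1 to miss detection.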

Other observations

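Genes beside Igf2 and other imprinted genes were set against it after the Igf2 and H19 values were seen, so they are given as values only. Of the 25 RefSeq genes that lie between or within 12 genes of Igf2 and H19, 14 were on the array and 9 were tested. Their differences ran from -0.16 (Cd81, a tetraspanin) to 0.21 (Ascl2, a transcription factor of the imprinted region), with a median of 0.083, and none had an unadjusted p under 0.05 by limma. Ascl2 was well above background on 2 of the 3 control arrays, so it was tested only through the C3a group, in which it is high. Th, tyrosine hydroxylase, was at 0.16, Mrpl23 at 0.15 and Kcnq1, a cardiac potassium channel gene, at 0.083. Ins2, the insulin gene next to Igf2, was detected on none of the 6 arrays. Among 23 tested imprinted genes other than Igf2, H19 and Igf2r, 18 differences were above 0 and 5 below, beside 60.5% above 0 over all tested genes, with a median of 0.060 and a range from -0.16 to 0.25. In 4 of them, Plagl1, Copg2, Gnas and Slc38a4, all C3a samples lay above all controls, beside 8.09% of all tested genes, and 1, Slc38a4 (0.25), an amino acid transporter, had an unadjusted p under 0.05 by limma, beside 5.38%. None passed the adjusted test.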
